A study of Mus musculus with 12 samples.

Results

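Mitochondrial ribosomal protein genes were taken as the protein-coding rows of both FPKM tables whose name starts with Mrpl or Mrps followed by a digit, and whose FPKM averaged at least 0.5 over the 6 libraries of a table. The names stand for proteins of the large (l) and the small (s) ribosomal subunit, with a few exceptions given below. FPKM are fragments per kilobase of gene, scaled between libraries. Of the 54532 rows of each table, 83 carried such a name, of which 78 were protein-coding (49 Mrpl and 29 Mrps) and 5 were processed pseudogenes. The FPKM minimum was met by 77 of the 78 in crypts and by 77 of the 78 in tumors. The exception was Mrpl53, which was listed at 0 in all 12 libraries. The members just inside the minimum averaged 2.86 FPKM (Mrps25, crypts) and 2.69 FPKM (Mrps30, tumors).

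The libraries came from mice with or without a homozygous CRISPR deletion of ieCtnnb1, an enhancer upstream of Ctnnb1, the gene for beta-catenin, that is active in the intestinal epithelium. Small intestine crypt RNA was compared between 3 libraries of genotype Wild type and 3 of genotype ieCtnnb1KO. Colon tumor RNA was compared between 3 libraries of genotype APCmin/+ and 3 of genotype APCmin/+;ieCtnnb1KO, so that both tumor groups carry the Apc mutation. All mice were adult, the treatment was given as "no" for every library, and the labels name no strain or sex. The deletion is carried by every cell of the animal and is not limited to a cell type. Crypts were released with EDTA and passed through a filter without cell sorting, and tumors were taken as bulk tissue, so each library mixes cell types. Between 14457896 and 16156712 fragments fell on genes in each library, and the tested members of a table had at least 93 fragments (Mrps6, crypts) or 135 fragments (Mrps18c, tumors) in every library.

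The labels were checked against marker genes. Ctnnb1 itself had 121, 134 and 122.7 FPKM in Wild type crypts 1 to 3 and 102, 104 and 105 FPKM in ieCtnnb1KO crypts 1 to 3. In tumors it had 299, 363 and 358 FPKM in APCmin/+ libraries 1 to 3 and 279, 248 and 250 FPKM in APCmin/+;ieCtnnb1KO libraries 1 to 3. In both tissues every knockout library lay below every control library, with a log2 difference of -0.28 (SE 0.118, limma adjusted p = 0.849) in crypts and -0.39 (SE 0.128, limma adjusted p = 0.303) in tumors. The epithelial markers were present in every library, with Krt8 the most abundant of 7 in both tissues. Paneth cell markers were present in all crypt libraries, led by Defa24. In crypts the 4 smooth muscle markers and the 3 neutrophil markers averaged below 0.5 FPKM, and S100a8 was at 0 in all 6 libraries. Tumor libraries held fibroblast, leukocyte, plasma cell and neutrophil transcripts as well. Crypt libraries also held leukocyte transcripts (9 of 10 markers tested, sums of 44.3 to 62.3 FPKM) and plasma cell transcripts (3 of 3, 45.3 to 66.9 FPKM). Of 6 fibroblast markers, 2 met the FPKM minimum in crypts. Of the stem cell markers, Olfm4 averaged below 0.5 FPKM in tumors.

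Several libraries stood apart from others of their group. Wild type crypts 3 had a summed Paneth marker level of 58112 FPKM, against 20089 and 29072 FPKM in Wild type crypts 1 and 2. Wild type crypts 2 gave the largest share of its fragments to mitochondrially encoded genes, 19.0%. Among tumors, replicate 3 of each genotype had Xist, a transcript of female cells, at 114 FPKM (APCmin/+) and 61.4 FPKM (APCmin/+;ieCtnnb1KO). The Y-linked Ddx3y was at 0 FPKM and 0.0247 FPKM in those 2 libraries, while the other 4 tumor libraries had 8.65 to 12.9 FPKM of Ddx3y and all crypt libraries 8.32 to 9.86 FPKM.

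Mitochondrial ribosomes translate the messages of the mitochondrial genome, all of which encode subunits of the respiratory chain and the ATP synthase. Their rRNAs are transcribed from mitochondrial DNA, while all their proteins are encoded in the nucleus, made on cytosolic ribosomes and imported. Some of these proteins descend from bacterial ribosomal proteins, and others occur only in mitochondria. In the intestinal epithelium, mitochondrial respiration is known to be prominent in stem cells and in absorptive enterocytes.

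Levels differed widely among the members and were alike in both tissues. Mean FPKM ran from 2.86 (Mrps25) to 65.7 (Mrpl34) in crypts, a 22.9-fold range, and from 2.69 (Mrps30) to 72.7 (Mrpl34) in tumors, a 27.0-fold range. The 3 highest members were Mrpl34, Mrpl52 and Mrpl43 in crypts, with 65.7, 54.6 and 40.7 FPKM, and Mrpl34, Mrpl52 and Mrps21 in tumors, with 72.7, 57.1 and 46.1 FPKM. Mrpl34 and Mrps21 are relatives of bacterial ribosomal proteins, while Mrpl52 and Mrpl43 occur only in mitochondria. The 3 lowest were Mrps25, Mrpl33 and Mrpl48 in crypts, with 2.86, 3.03 and 3.46 FPKM, and Mrps30, Mrpl47 and Mrpl48 in tumors, with 2.69, 3.36 and 3.56 FPKM. Across the 77 members, the mean FPKM of crypts and of tumors had a Spearman rho of 0.94. These points are different libraries but share gene models and lengths, and genes are not independent replicates.

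Much of the order of FPKM followed the length by which they are divided. The gene length given in the tables, whose construction is not stated, ran from 607 bases (Mrpl34) to 8631 bases among members. FPKM and this length had a Spearman rho of -0.83 in crypts and -0.84 in tumors over the 77 members, a relation to which the division itself contributes. With the fragments divided instead by the length of the GENCODE M21 transcript with the longest coding sequence, a choice made after the values were seen, Mrpl52 was highest with 145 in crypts and 152 in tumors. Mrps25 was then lowest in both tissues, with 3.10 and 3.99. In crypts Mrpl30 moved from rank 32 to rank 2, Mrpl42 from rank 38 to rank 3 and Mrps17 from rank 60 to rank 8. The Spearman rho between both kinds of level was 0.72 in crypts and 0.72 in tumors. Comparisons between members of unlike length therefore depend on the length used, and the comparisons between genotypes below are made within a gene.

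The members are scattered over 17 chromosomes, with 11 of the 77 on chromosome 11, 8 on chromosome 17 and 0 on X or Y. A protein-coding gene on the other strand started within 1000 bases upstream of 19 of the 77 members (24.7%), against 1216 of the 11693 protein-coding genes tested in crypts (10.4%). Of these neighbours, 17 were tested in both tissues. Their median log2 difference between genotypes was 0.08 in crypts and -0.05 in tumors, against 0.14 and 0.16 for the members they neighbour. Bases were shared with another gene by 40 of the 77 members (51.9%), and with a gene on the same strand by 12. Neither the labels nor the methods say whether fragments were assigned by strand, so the values of such members may include fragments of the other gene. Mrps34 shares 2387 bases with Mapk8ip3 on the other strand and 1003 bases with Nme3 on its own strand, and Nme3 was listed at 0 in both tables. Mrps24 shares 2264 bases with Urgcp on the same strand. Mrpl53 lies whole within Gm42688 on the same strand, at GRCm38 chr6:83109040-83109939. A value of 0 in 12 libraries for Mrpl53 therefore does not show that the gene was silent.

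Promoter sequences of 69 of the 78 members were matched in RefSeq (GRCm38.p6), as 75 windows from 250 bases before to 50 bases after a start. Mrpl13, Mrpl15, Mrpl19, Mrpl38, Mrpl4, Mrpl54, Mrps28, Mrps34 and Mrps35 were not matched. The letters CCGGAAG, the core bound by ETS factors such as GABP, were present on either strand in 26 of the 75 windows (34.7%), in 8.86% of all 32851 windows and in 17.7% of the windows of genes tested in crypts. The YY1 core AAGATGGC was present in 12 of the 75 (16%), in 2.75% of all windows and in 4.46% of the windows of tested genes. The NRF1 letters GCATGCGC were present in 8 of the 75 (10.7%), in 2.71% of all windows and in 5.19% of those of tested genes. At least 1 of these 3 motifs was found for 38 members. The TCF/LEF core CTTTGA, the motif through which beta-catenin acts, was present in 13 windows of members (17.3%), in 16.003% of all windows and in 12.3% of those of tested genes. The E box CACGTG was in 7 windows of 5 members (9.33%), in 7.15% of all windows and in 9.91% of those of tested genes. The CRE TGACGTCA was in 2 (2.67%), in 1.79% of all windows and in 3.003% of those of tested genes. The TATA box TATAAA was in 5 (6.67%), in 13.6% of all windows and in 7.48% of those of tested genes. A match gives the letters only and does not show a bound site.

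Windows of 5 members, chosen after the values were seen, are printed as examples. Mrpl46, Mrps23 and Mrps15 are the 3 members (3.9%, all genes 1.11%) whose knockout libraries lay above every control library in both tissues, and Mrps11 starts 42 bases from Mrpl46 on the other strand. Mrps12 is 1 of 8 members that hold at least 2 of the ETS, NRF1 and YY1 motifs. Each runs 5′ to 3′ on the gene's strand from 250 bases before the start to 30 bases after it (RefSeq, GRCm38.p6), and capitals mark letters that match one of the motifs on either strand. The positions are chr7:78783060-78783339 (minus strand) for Mrpl46, chr7:78782881-78783160 (plus strand) for Mrps11, chr11:88204138-88204417 (plus strand) for Mrps23, chr4:126046678-126046957 (plus strand) for Mrps15 and chr7:28741792-28742071 (minus strand) for Mrps12.
Mrpl46: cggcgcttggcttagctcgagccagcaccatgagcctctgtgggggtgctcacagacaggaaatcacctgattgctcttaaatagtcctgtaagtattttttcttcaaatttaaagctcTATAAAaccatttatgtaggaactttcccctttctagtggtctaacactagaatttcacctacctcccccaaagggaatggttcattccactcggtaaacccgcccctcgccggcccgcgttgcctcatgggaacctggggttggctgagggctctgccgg
Mrps11: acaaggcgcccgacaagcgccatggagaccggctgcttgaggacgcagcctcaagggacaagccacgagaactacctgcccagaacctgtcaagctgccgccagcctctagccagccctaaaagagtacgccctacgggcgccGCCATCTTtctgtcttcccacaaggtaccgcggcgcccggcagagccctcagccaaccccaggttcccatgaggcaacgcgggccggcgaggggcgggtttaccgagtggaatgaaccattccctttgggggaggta
Mrps23: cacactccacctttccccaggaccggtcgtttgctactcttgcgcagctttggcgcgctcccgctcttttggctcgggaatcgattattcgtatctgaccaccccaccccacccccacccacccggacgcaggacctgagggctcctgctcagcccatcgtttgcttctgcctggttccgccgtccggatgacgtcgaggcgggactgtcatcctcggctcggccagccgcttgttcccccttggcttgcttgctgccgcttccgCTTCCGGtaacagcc
Mrps15: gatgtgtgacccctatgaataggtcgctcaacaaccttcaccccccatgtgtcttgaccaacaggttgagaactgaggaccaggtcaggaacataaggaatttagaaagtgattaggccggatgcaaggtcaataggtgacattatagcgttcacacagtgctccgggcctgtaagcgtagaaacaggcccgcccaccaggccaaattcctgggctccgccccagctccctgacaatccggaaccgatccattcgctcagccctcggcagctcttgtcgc
Mrps12: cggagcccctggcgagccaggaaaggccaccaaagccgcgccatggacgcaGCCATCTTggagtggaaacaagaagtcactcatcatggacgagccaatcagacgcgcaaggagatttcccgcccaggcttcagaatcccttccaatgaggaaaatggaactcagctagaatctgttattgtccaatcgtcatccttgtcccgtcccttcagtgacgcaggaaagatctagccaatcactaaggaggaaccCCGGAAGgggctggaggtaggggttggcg

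In these windows Mrpl46 held TATAAA from 131 bases before its start, and Mrps15 held none of the 7 motifs. Mrps23 held the ETS core on the other strand, from base 16 after its start. Mrps12 held the YY1 core on the other strand from 199 bases before its start and the ETS core from base 2 after it. Mrps11 held the YY1 core on the other strand from 107 bases before its start. The windows of Mrpl46 and Mrps11 overlap, and the genes themselves share 413 bases in the annotation.

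In crypts, the comparison of genotypes asks how the members stood when the enhancer was missing. The log2 difference was above 0 for 68 of the 77 members (88.3%), against 52.8% of all 14176 genes tested, and the members' median was 0.18 against 0.01 for all genes. No member passed the test: 0 of 77 had a limma adjusted p under 0.05 (all genes 0%), and the lowest adjusted p of a member was 0.797. An unadjusted limma p under 0.05 was reached by 7 members that were higher in the knockout (9.09%, all genes 3.48%) and by 0 that were lower (all genes 2.36%). All 3 knockout libraries lay above all 3 controls for 10 members (13%, all genes 6.79%), and below them for 0 (all genes 5.15%). For a single member, the smallest two-sided p that an exact permutation of these 6 libraries allows is 0.1. In such bulk samples, fewer cells of a type and less RNA per cell cannot be told apart.

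By library, the median member had 13.6, 10.8 and 12.4 FPKM in Wild type crypts 1 to 3 and 13.9, 14.8 and 12.5 FPKM in ieCtnnb1KO crypts 1 to 3. The groups overlapped, since Wild type 1 lay above ieCtnnb1KO 3. The summed FPKM of the members was 1252, 1043 and 1217 in the controls and 1324, 1427 and 1200 in the knockouts. The highest value of a member was most often in ieCtnnb1KO 2 (38 of 77), and the lowest most often in Wild type 2 (42) or Wild type 3 (25). The count of 7 members rested on single libraries: it was 17 without Wild type 1, 2 without Wild type 2, 11 without Wild type 3, 0 without ieCtnnb1KO 1 and 0 without ieCtnnb1KO 2. Of all genes, 4.94%, 2.27%, 5.23%, 1.70% and 2.90% were higher at that threshold in the same 5 fits. The count of 10 members above all controls became 35 without Wild type 1 (45.5%, all genes 15.5%), 23 without Wild type 3 (29.9%, all genes 13.1%) and 32 without ieCtnnb1KO 3 (41.6%, all genes 12.4%). The other fits lay nearer to all genes. They gave 10 without Wild type 2 (13.0%, all genes 10.53%), 11 without ieCtnnb1KO 1 (14.3%, all genes 9.52%) and 10 without ieCtnnb1KO 2 (13.0%, all genes 11.6%). When all libraries were brought to the same FPKM total, the median of all genes moved to 0.14 and that of the members to 0.32, a distance of 0.18. The members above all controls were then 5 (6.49%, all genes 10.04%), and 2 (2.60%, all genes 3.62%) when the total left out the 50 highest genes, shares below those of all genes, but 7 (9.09%, all genes 5.33%) after quantile normalization. At an unadjusted p under 0.05, 2 members (2.60%) were higher when the total left out the 50 highest genes (all genes 2.01%) and 2 after quantile normalization (all genes 2.61%), so both shares were near those of all genes. The genes with an unadjusted p under 0.05 were 494 higher and 335 lower, but 734 and 159 with the same total, and 285 and 508 with a total that left out the 50 highest genes.

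**Figure D1:**
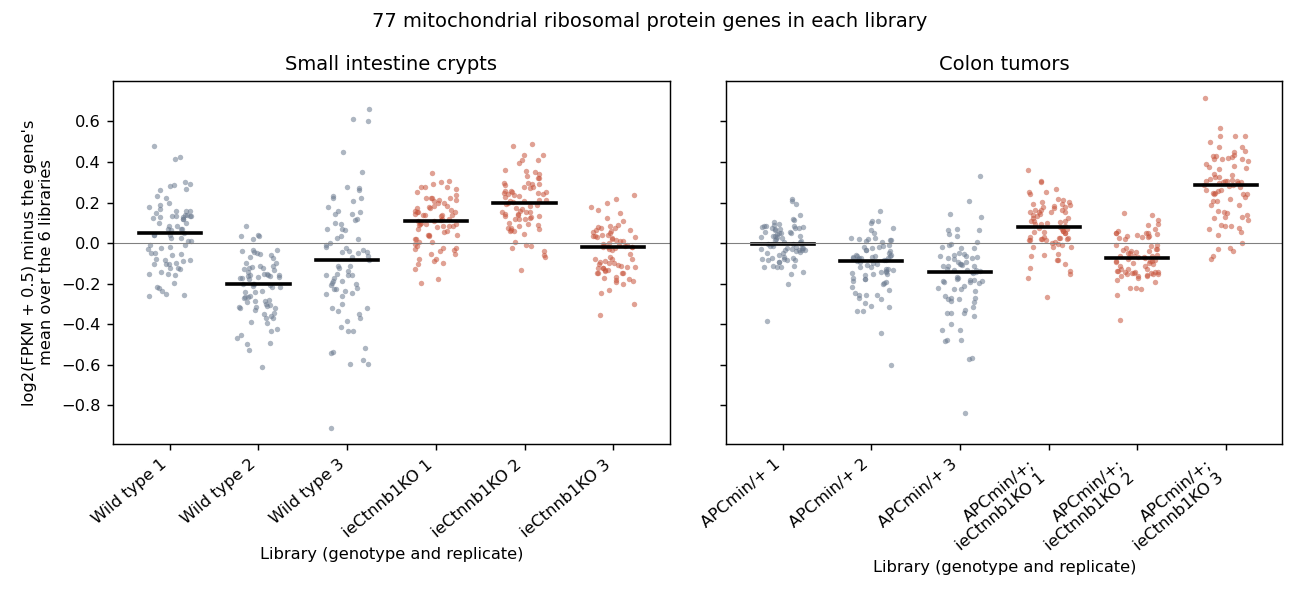
Each point is 1 of 77 members, plotted as log2(FPKM + 0.5) minus that gene's mean over the 6 libraries of its table, for each library of crypts and tumors. The medians run from -0.20 (Wild type 2) to 0.20 (ieCtnnb1KO 2) in crypts and from -0.14 (APCmin/+ 3) to 0.29 (APCmin/+;ieCtnnb1KO 3) in tumors, with libraries of both genotypes in between.

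Of the members named Mrps, all 29 had a log2 difference above 0 in crypts, with a median of 0.18. When the total left out the 50 highest genes, 24 of 29 did, and the median of all genes was -0.04. Mrps34, a protein of the small subunit found only in mitochondria, had 9.80, 7.35 and 11.3 FPKM in Wild type crypts 1 to 3 and 14.8, 15.7 and 12.1 FPKM in ieCtnnb1KO crypts 1 to 3. The groups did not overlap, with ieCtnnb1KO 3 only just above Wild type 3. Its mean was 9.49 ± 1.999 FPKM (SD, n = 3) in controls and 14.2 ± 1.86 FPKM (SD, n = 3) in knockouts, a log2 difference of 0.57 (SE 0.183, limma adjusted p = 0.797). Mrps34 (ENSMUSG00000038880) lies at GRCm38 chr17:24895116-24897502 and shares bases with Mapk8ip3 and Nme3, as given above.

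Mrps15 and Mrps23 also had groups without overlap in crypts. Mrps15, the relative of the bacterial protein of the same number, had 19.7, 15.99 and 19.9 FPKM in Wild type crypts 1 to 3 and 22.7, 24.0 and 21.6 FPKM in ieCtnnb1KO crypts 1 to 3. Every knockout library was above every control, and the log2 difference was 0.30 (SE 0.128, limma adjusted p = 0.849). Mrps23, found only in mitochondria, had 23.6, 22.0 and 20.5 FPKM in Wild type crypts 1 to 3 and 26.6, 28.8 and 23.9 FPKM in ieCtnnb1KO crypts 1 to 3. The lowest knockout, replicate 3, lay just above the highest control, replicate 1, and the log2 difference was 0.26 (SE 0.122, limma adjusted p = 0.860).

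Of the members named Mrpl, 39 of 48 had a log2 difference above 0 in crypts, with a median of 0.19. Mrpl28, related to a protein of the bacterial large subunit, had 36.4, 29.7 and 33.9 FPKM in Wild type crypts 1 to 3 and 46.6, 48.7 and 39.7 FPKM in ieCtnnb1KO crypts 1 to 3. The groups did not overlap, and Wild type 2 was the lowest library. The mean was 33.3 ± 3.35 FPKM (SD, n = 3) in controls and 45.0 ± 4.73 FPKM (SD, n = 3) in knockouts, with a log2 difference of 0.43 (SE 0.137, limma adjusted p = 0.797).

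Mrpl46, which occurs only in mitochondria, had 16.1, 12.6 and 14.7 FPKM in Wild type crypts 1 to 3 and 19.5, 21.4 and 17.1 FPKM in ieCtnnb1KO crypts 1 to 3. All knockout libraries were above all controls, and the log2 difference was 0.41 (SE 0.141, limma adjusted p = 0.806). Its neighbour Mrps11, whose start lies 42 bases away, had 5.74, 6.38 and 6.11 FPKM in the controls and 6.08, 6.76 and 6.10 FPKM in the knockouts. The Mrps11 groups overlapped, with a log2 difference of 0.05 (SE 0.111, limma adjusted p = 0.968).

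Mrpl42, which occurs only in mitochondria, had 13.6, 10.4 and 9.46 FPKM in Wild type crypts 1 to 3 and 15.8, 16.7 and 13.4 FPKM in ieCtnnb1KO crypts 1 to 3. The groups overlapped, as Wild type 1 lay above ieCtnnb1KO 3, and the log2 difference was 0.45 (SE 0.165, limma adjusted p = 0.811). Mrpl4, whose bacterial relative lines the exit tunnel of the ribosome, had 22.2, 14.9 and 16.7 FPKM in Wild type crypts 1 to 3 and 25.5, 24.6 and 22.3 FPKM in ieCtnnb1KO crypts 1 to 3. The groups were separated only by the small distance between Wild type 1 and ieCtnnb1KO 3, and the log2 difference was 0.44 (SE 0.165, limma adjusted p = 0.823). The other 2 members of the 7, named after their values were seen, were Mrpl43 and Mrpl15, with log2 differences of 0.26 and 0.33.

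**Figure D2:**
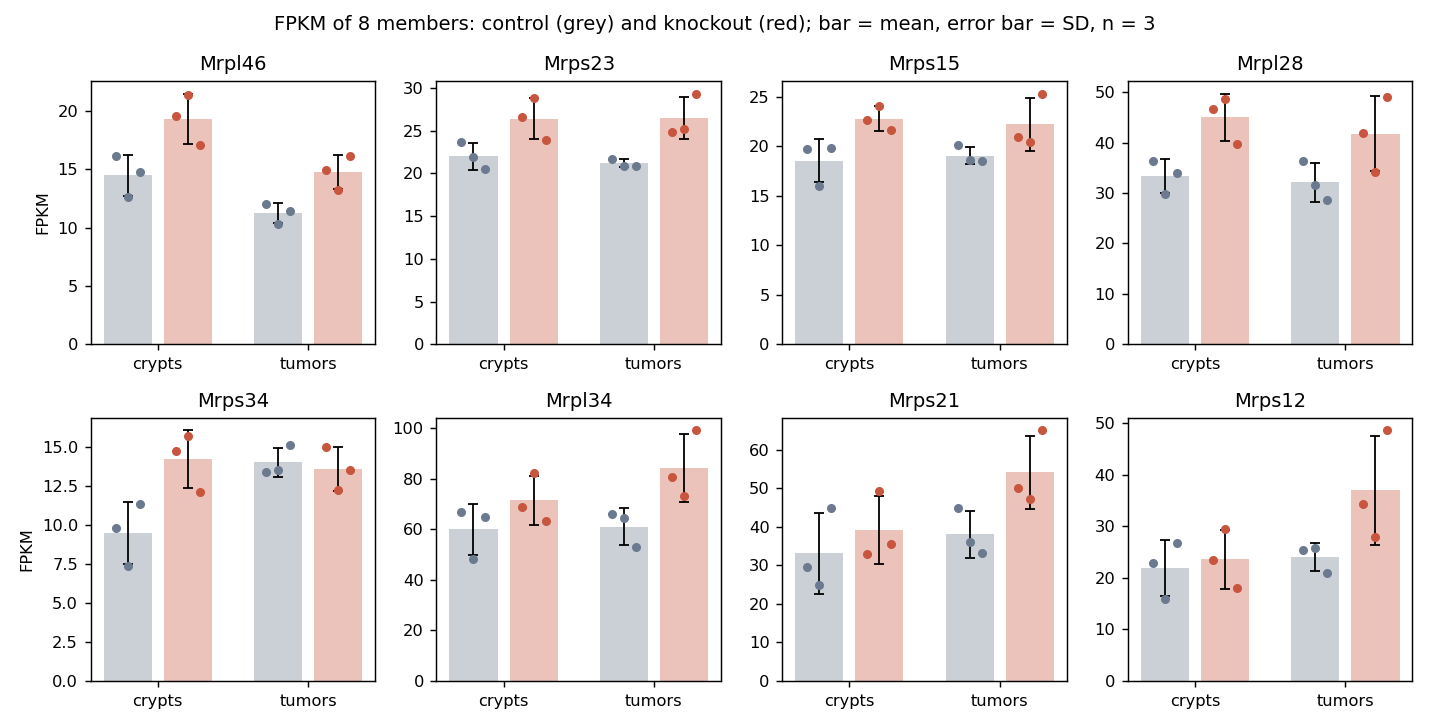
FPKM of 8 members in crypts and tumors, with a point for each library, bars for the mean and error bars for the SD (n = 3), controls in grey and knockouts in red. Mrpl46, Mrps23 and Mrps15 have every knockout above every control in both tissues (3.9% of members, 1.11% of all genes), while Mrps34 runs from 7.35 to 15.7 FPKM in crypts and from 12.2 to 15.1 FPKM with overlap in tumors.

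With the same FPKM total (median of all genes 0.14), only 1 member was below 0 in crypts. As deposited, 9 members had a log2 difference below 0 there, and all carry Mrpl names. Among the 5 with the smallest p, Mrpl20 had 13.0, 11.8 and 23.3 FPKM in Wild type crypts 1 to 3 and 13.3, 15.2 and 13.1 FPKM in ieCtnnb1KO crypts 1 to 3. Only Wild type 3 stood out, and the log2 difference of -0.14 (SE 0.250) became 0.15 without it. Mrpl14, the relative of a bacterial large-subunit protein at the face between the subunits, had 18.2, 17.8 and 32.7 FPKM in Wild type crypts 1 to 3 and 20.8, 20.9 and 19.4 FPKM in ieCtnnb1KO crypts 1 to 3. Wild type 3 was again alone, and the log2 difference of -0.11 (SE 0.235) became 0.17 without it and 0.04 with the same FPKM total. Mrpl27, whose bacterial relative reaches into the peptidyl transferase center, had 22.4, 25.2 and 36.3 FPKM in the controls and 25.7, 26.0 and 25.01 FPKM in the knockouts. Its log2 difference of -0.10 (SE 0.185) became 0.11 without Wild type 3 and 0.05 with the same FPKM total. Mrpl17 (-0.08, SE 0.133) and Mrpl23 (-0.06, SE 0.150) differed by less than the SE, and with the same FPKM total they stood at 0.05 and 0.08. Without ieCtnnb1KO 3, Mrpl23 stood at 0.05.

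In tumors, the comparison asks the same of animals that all carry the Apc mutation. The log2 difference was above 0 for 67 of the 77 members (87%), against 51.3% of all 16743 genes tested, and the members' median was 0.16 against 0.01 for all genes. No member passed: 0 of 77 had a limma adjusted p under 0.05 (all genes 0%), and the lowest adjusted p of a member was 0.280. An unadjusted limma p under 0.05 was reached by 13 members that were higher in the knockout (16.9%, all genes 8.46%) and by 0 that were lower (all genes 6%). All 3 knockout libraries lay above all 3 controls for 17 members (22.1%, all genes 11.4%) and below them for 0 (all genes 10.6%). With the same FPKM total these counts were 9 above (11.7%, all genes 5.74%) and 3 below (all genes 17.5%).

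By library, the median member had 13.0, 11.2 and 11.4 FPKM in APCmin/+ tumors 1 to 3 and 13.8, 12.3 and 15.0 FPKM in APCmin/+;ieCtnnb1KO tumors 1 to 3. The groups overlapped, as the knockout replicate 2 lay below the control replicate 1. The summed FPKM was 1292, 1166 and 1108 in the controls and 1406, 1244 and 1640 in the knockouts. The knockout replicate 3 held the highest value of 63 of the 77 members, and the control replicate 3 the lowest value of 37. These 2 are the libraries with Xist. Between them alone the members' median difference was 0.44 with 71 of 77 above 0, against a median of 0.004 for all genes. This is 1 library against 1, with no test. Among the 4 tumor libraries with Y-linked transcripts, 2 of each genotype, the members' median was 0.06 (all genes 0.003). There 0 members had an unadjusted limma p under 0.05 and were higher (all genes 4.26%). Both knockouts lay above both controls for 19 of the 77 (24.7%, all genes 20.9%) and below them for 7 (all genes 19.5%), so the share above was near that of all genes.

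The count of 13 members was 4 without the control replicate 2, 2 without the control replicate 3, 5 without the knockout replicate 1, 27 without the knockout replicate 2 and 5 without the knockout replicate 3. Of all genes, 5.09%, 5.09%, 6.65%, 9.21% and 6.41% were higher at that threshold in the same 5 fits. The count of 17 members above all controls became 33 without the control replicate 1 (42.9%, all genes 19.7%) and 47 without the knockout replicate 2 (61.04%, all genes 20.1%). The other fits lay nearer to all genes. They gave 21 without the control replicate 2 (27.3%, all genes 14.8%) and 19 without the control replicate 3 (24.7%, all genes 15.05%). Without the knockout replicate 1 the count was 20 (25.97%, all genes 16.2%), and without the knockout replicate 3 it was 17 (22.1%, all genes 16.05%). When the FPKM total without mitochondrially encoded genes was made equal, the median of all genes moved to -0.11 and that of the members to 0.03, with 48 of the 77 above 0. The members above all controls were then 9 (11.7%, all genes 5.29%), those below all controls 4 (all genes 18.4%), and those higher at an unadjusted p under 0.05 were 7 (9.09%, all genes 3.94%). The tested genes with an unadjusted p under 0.05 were 1417 higher and 1004 lower, but 660 and 1948 on that scale, 731 and 1785 with the same total of all genes, 730 and 1953 with a total that left out the 50 highest genes, and 1109 and 1286 after quantile normalization. The distance between members and all genes was 0.15 as deposited and 0.14 under each of these 4 scalings. Scaling to a total moves all genes of a library alike, so it could change this distance little. In crypts the distance was 0.17 as deposited and 0.13 after quantile normalization.

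Of the members named Mrps, 21 of 29 in tumors were above 0, with a median of 0.14. When the total left out mitochondrially encoded genes, 17 of 29 were, and the median of all genes was -0.11. Mrps23 had 21.7, 20.9 and 20.9 FPKM in APCmin/+ tumors 1 to 3 and 24.9, 25.3 and 29.3 FPKM in APCmin/+;ieCtnnb1KO tumors 1 to 3. The groups did not overlap, and the controls lay close together. The mean was 21.2 ± 0.478 FPKM (SD, n = 3) in controls and 26.5 ± 2.49 FPKM (SD, n = 3) in knockouts, with a log2 difference of 0.31 (SE 0.0906, limma adjusted p = 0.285).

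Mrps21, the relative of a bacterial small-subunit protein, had 44.8, 36.0 and 33.3 FPKM in APCmin/+ tumors 1 to 3 and 50.03, 47.2 and 65.1 FPKM in APCmin/+;ieCtnnb1KO tumors 1 to 3. The groups did not overlap, with the knockout replicate 3 well above the rest, and the log2 difference was 0.50 (SE 0.162, limma adjusted p = 0.302). Mrps16, whose human gene is mutated in a mitochondrial disease, had 8.83, 6.72 and 6.68 FPKM in the controls and 9.70, 8.91 and 11.7 FPKM in the knockouts. The control replicate 1 came close to the knockout replicate 2 without overlap, and the log2 difference was 0.43 (SE 0.151, limma adjusted p = 0.316).

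Mrps12, the relative of the bacterial protein at the decoding center, had 25.4, 25.8 and 20.96 FPKM in APCmin/+ tumors 1 to 3 and 34.2, 27.9 and 48.6 FPKM in APCmin/+;ieCtnnb1KO tumors 1 to 3. No overlap was seen, and the knockouts were spread widely around 36.9 ± 10.6 FPKM (SD, n = 3), with a log2 difference of 0.58 (SE 0.204, limma adjusted p = 0.316). In crypts Mrps12 had 22.9, 15.97 and 26.8 FPKM in the controls and 23.4, 29.4 and 18.0 FPKM in the knockouts. These overlapped, and the log2 difference of 0.11 (SE 0.243) became -0.10 without Wild type 2 and -0.06 without ieCtnnb1KO 2.

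Of the members named Mrpl, 46 of 48 in tumors were above 0, with a median of 0.16. When the total left out mitochondrially encoded genes, 31 of 48 were, and the median of all genes was -0.11. Mrpl46 had 12.0, 10.3 and 11.4 FPKM in APCmin/+ tumors 1 to 3 and 15.0, 13.2 and 16.1 FPKM in APCmin/+;ieCtnnb1KO tumors 1 to 3. The groups did not overlap. Its mean was 11.2 ± 0.874 FPKM (SD, n = 3) in controls and 14.8 ± 1.47 FPKM (SD, n = 3) in knockouts, a ratio of 1.32 and a log2 difference of 0.38 (SE 0.107, limma adjusted p = 0.280). Leaving out single libraries, this difference ran from 0.32 to 0.46. The neighbour Mrps11 had 8.30, 7.65 and 6.71 FPKM in the controls and 7.01, 7.12 and 10.2 FPKM in the knockouts, which overlapped.

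Mrpl34, the member with the highest FPKM, had 65.9, 64.5 and 52.9 FPKM in APCmin/+ tumors 1 to 3 and 80.7, 73.2 and 99.2 FPKM in APCmin/+;ieCtnnb1KO tumors 1 to 3. All knockouts lay above all controls, the knockout replicate 3 farthest, and the log2 difference was 0.46 (SE 0.145, limma adjusted p = 0.2999). In crypts Mrpl34 had 66.7, 48.3 and 64.8 FPKM in the controls and 68.7, 82.2 and 63.5 FPKM in the knockouts. There the groups overlapped, with a log2 difference of 0.26 (SE 0.174, limma adjusted p = 0.896).

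The members with the smallest p among those below 0 in tumors were Mrpl1, Mrpl3, Mrps5, Mrps2 and Mrps30, all but Mrps30 with bacterial relatives of the same number. Mrps30 is a component of the large subunit despite its name. Mrpl1 had 4.30, 4.76 and 4.89 FPKM in APCmin/+ tumors 1 to 3 and 3.56, 4.21 and 4.66 FPKM in APCmin/+;ieCtnnb1KO tumors 1 to 3. The groups overlapped, and the log2 difference was -0.15 (SE 0.126, limma adjusted p = 0.580). The other 4 had log2 differences of -0.09 (Mrpl3), -0.09 (Mrps5), -0.08 (Mrps2) and -0.10 (Mrps30), each within its SE.

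Side by side, 58 members were above 0 in both tissues (75.3%, all genes 29.5%), 10 only in crypts, 9 only in tumors and 0 in neither. The sizes were not shared: across the 77 members the log2 differences of crypts and tumors had a Spearman rho of -0.20, over different libraries but the same gene models. Mrps34 had the highest log2 difference of the members in crypts and -0.04 (SE 0.104) in tumors, where its groups overlapped. Mrpl14 had the highest in tumors, 0.60 (SE 0.239), with 29.3, 23.1 and 14.7 FPKM in the controls and 34.2, 29.4 and 35.002 FPKM in the knockouts. The groups of Mrpl14 all but touched in tumors, at the control replicate 1 and the knockout replicate 2. Whether a member's difference itself differed between tissues was not tested. Mrpl46, Mrps23 and Mrps15, named after their values were seen, were the 3 members (3.9%) with every knockout above every control in both, as were 1.11% of the 13370 genes tested in both tables. For Mrps15 the tumor values were 20.1, 18.6 and 18.5 FPKM in controls and 20.96, 20.4 and 25.3 FPKM in knockouts, with a log2 difference of 0.21 (SE 0.105, limma adjusted p = 0.399).

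**Figure D3:**
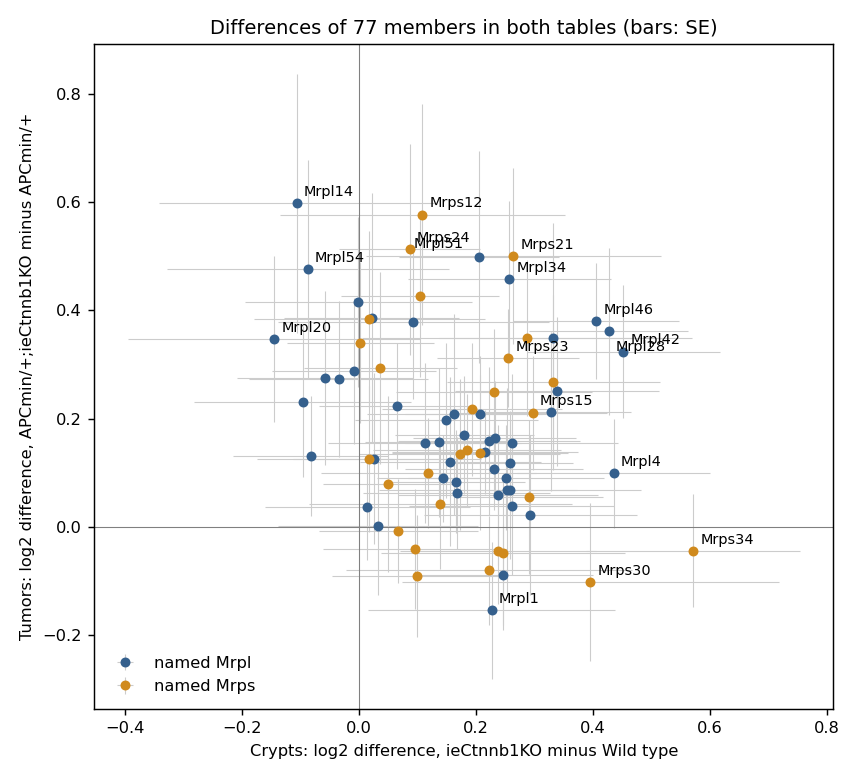
Each point is 1 of 77 members, with its log2 difference between knockout and control in crypts on the x axis and in tumors on the y axis, error bars of 1 SE, and colors for the names Mrpl and Mrps. Of the points, 58 lie above 0 on both axes, and the Spearman rho is -0.20.

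Several members have further roles or paralogs. Mrpl12, which also binds the mitochondrial RNA polymerase, had 32.6, 25.4 and 39.8 FPKM in Wild type crypts 1 to 3 and 44.7, 43.7 and 34.1 FPKM in ieCtnnb1KO crypts 1 to 3. In tumors it had 33.9, 36.0 and 23.1 FPKM in controls and 40.8, 31.0 and 46.5 FPKM in knockouts. The groups overlapped in both tissues, and the log2 differences were 0.33 (SE 0.195, limma adjusted p = 0.890) and 0.35 (SE 0.213, limma adjusted p = 0.469). Mrps36 is also a part of the oxoglutarate dehydrogenase complex. It had log2 differences of 0.19 (SE 0.153) in crypts and 0.22 (SE 0.123) in tumors, and its mean FPKM was 19.3 and 10.8.

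Mrpl58, a peptidyl-tRNA hydrolase built into the large subunit, had 7.60, 9.42 and 8.17 FPKM in Wild type crypts 1 to 3 and 9.95, 10.03 and 10.2 FPKM in ieCtnnb1KO crypts 1 to 3. All knockouts lay above all controls, with a log2 difference of 0.25 (SE 0.118, limma adjusted p = 0.857). In tumors its groups overlapped, and the difference of 0.07 (SE 0.190) was -0.04 with the same FPKM total, -0.01 without the control replicate 3, -0.0018 without the knockout replicate 1 and -0.07 without the knockout replicate 3.

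The 3 Mrps18 paralogs are related to 1 bacterial protein, and of them Mrps18a sits in the large subunit. In crypts Mrps18a had 6.77, 6.20 and 5.93 FPKM in the controls and 7.46, 8.90 and 7.18 FPKM in the knockouts. These did not overlap, with a log2 difference of 0.29 (SE 0.127, limma adjusted p = 0.849). Mrps18b and Mrps18c had overlapping groups in crypts, with log2 differences of 0.25 (SE 0.209) and 0.23 (SE 0.167). In tumors Mrps18c had a log2 difference of 0.25 (SE 0.115), while Mrps18a (0.06, SE 0.142) and Mrps18b (-0.05, SE 0.143) differed by less than the SE. In tumors Mrps18a stood at -0.05 with the same FPKM total, -0.0031 without the control replicate 3, -0.02 without the knockout replicate 1 and -0.01 without the knockout replicate 3, and Mrps18b at 0.10 without the control replicate 3.

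Mrpl3, Mrpl44 and Mrps22 are, like Mrps16, genes of human mitochondrial disease. Mrpl44 had log2 differences of 0.23 (SE 0.139) in crypts and 0.16 (SE 0.106) in tumors, with overlapping groups in both. Mrpl3 had 0.25 (SE 0.154) in crypts and -0.09 (SE 0.0936) in tumors. Mrps22 had 0.14 (SE 0.225) in crypts and 0.04 (SE 0.120) in tumors, each within its SE. The Mrps22 difference changed sign without Wild type 3 (-0.04) or ieCtnnb1KO 2 (-0.03) in crypts, and without the control replicate 2 (-0.03) or the knockout replicate 3 (-0.02) in tumors. With the same FPKM total it was -0.06 in tumors.

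For the lists of other genes that follow, a median near 0 depends on the scaling. The median of all genes was 0.01 in both tissues as deposited, and 0.14 in crypts and -0.09 in tumors with the same FPKM total. The mitochondrial ribosome holds further proteins whose genes carry other names: Dap3, Ptcd3, Aurkaip1, Chchd1 and Gadd45gip1. All 5 were above 0 in crypts (median 0.16) and 3 of 5 in tumors (median 0.12, but 0.02 with the same FPKM total and -0.05 among the 4 libraries with Y-linked transcripts), with 0 and 1 at an unadjusted p under 0.05. Aurkaip1 was that 1, with 30.9, 22.9 and 24.99 FPKM in APCmin/+ tumors 1 to 3 and 31.4, 32.3 and 38.7 FPKM in APCmin/+;ieCtnnb1KO tumors 1 to 3. The control replicate 1 almost reached the knockouts, and the log2 difference was 0.38 (SE 0.139, limma adjusted p = 0.320). With the same FPKM total, and also after quantile normalization, 0 genes of this list had an unadjusted limma p under 0.05 in tumors. In crypts the smallest p belonged to Chchd1 (0.33, SE 0.183) and Dap3 (0.22, SE 0.127), both with groups that overlapped at ieCtnnb1KO 3. Ptcd3 had a log2 difference of -0.16 (SE 0.111) in tumors.

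Assembly factors and enzymes that modify the mitochondrial rRNA showed a smaller median in crypts: 20 of 26 were above 0 (median 0.07), 2 of them at an unadjusted limma p under 0.05 and none of those lower. When the total left out the 50 highest genes, 14 of 26 were above 0 (median 0.01). Malsu1, which keeps the unfinished large subunit from joining the small one, had 4.33, 4.14 and 4.09 FPKM in Wild type crypts 1 to 3 and 5.97, 5.96 and 5.75 FPKM in ieCtnnb1KO crypts 1 to 3. The groups lay far apart relative to their spread, and the log2 difference was 0.45 (SE 0.105, limma adjusted p = 0.728). Mpv17l2 was the other, with 16.03, 19.3 and 15.4 FPKM in the controls and 20.03, 23.4 and 20.4 FPKM in the knockouts, which did not overlap, and a log2 difference of 0.32 (SE 0.133, limma adjusted p = 0.845). In tumors 14 of 26 were above 0 with a median of 0.03, which was -0.07 with the same FPKM total, and 1 gene in each direction had an unadjusted p under 0.05 (1 higher and 3 lower with the same FPKM total). These were Mrm2, an rRNA methyltransferase (0.61, SE 0.216), and Trub2 (-0.36, SE 0.124).

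Of the 14 translation factors tested, with Slirp below the FPKM minimum, all were above 0 in crypts (median 0.21, 1 at an unadjusted p under 0.05), or 13 of 14 when the total left out the 50 highest genes. In tumors 6 were above 0 (median -0.07, 1 in each direction), or 3 of 14 with the same FPKM total (0 higher and 3 lower at that p). Tufm, the elongation factor that brings tRNAs to the ribosome, had 55.3, 51.7 and 47.7 FPKM in APCmin/+ tumors 1 to 3 and 62.4, 60.4 and 66.8 FPKM in APCmin/+;ieCtnnb1KO tumors 1 to 3. All knockouts lay above all controls, with a log2 difference of 0.29 (SE 0.0906, limma adjusted p = 0.296). In crypts Tufm had 73.9, 53.9 and 57.2 FPKM in controls and 74.98, 82.4 and 61.9 FPKM in knockouts. Those overlapped, with a log2 difference of 0.25 (SE 0.174). Guf1, a factor related to elongation factors, had 4.57, 4.90 and 5.42 FPKM in the tumor controls and 3.82, 4.02 and 3.56 FPKM in the tumor knockouts. Every knockout was below every control, with a log2 difference of -0.34 (SE 0.110, limma adjusted p = 0.3002). In crypts the initiation factor Mtif3 had a log2 difference of 0.35 (SE 0.126, limma adjusted p = 0.806) and Taco1 0.30 (SE 0.179). Lrpprc, which stabilizes mitochondrial messages, had 0.40 (SE 0.272) in crypts and -0.11 (SE 0.0856) in tumors, where every knockout library lay below every control.

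Of the 20 enzymes that charge or amidate mitochondrial tRNAs, 14 were above 0 in crypts (median 0.10, but 0.04 when the total left out the 50 highest genes) and 10 in tumors (median -0.02, but 0 of 20 and -0.12 with the same FPKM total), with 0 at an unadjusted limma p under 0.05 in either tissue. Among the 4 tumor libraries with Y-linked transcripts 3 of 20 were above 0. The smallest p belonged to Fars2 (0.35, SE 0.169) and Aars2 (0.19, SE 0.121) in crypts and to Iars2 (-0.12, SE 0.0819) and Gatc (0.10, SE 0.0824) in tumors. Gatc stood at -0.0052 with the same FPKM total.

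Of 13 regulators of mitochondrial transcription and biogenesis, 10 were above 0 in crypts (median 0.07) and 4 in tumors (median -0.06). In crypts these became 12 of 13 (0.21) with the same FPKM total and 8 of 13 (0.01) when the total left out the 50 highest genes, and in tumors 1 of 13 (-0.16) with the same FPKM total. In crypts 0 had an unadjusted limma p under 0.05, and the smallest p belonged to Ppargc1b (0.26, SE 0.139) and Gabpb1 (0.14, SE 0.144). In tumors 1 gene in each direction had one. Esrra, a nuclear receptor that acts on mitochondrial genes, had 44.8, 39.3 and 33.9 FPKM in APCmin/+ tumors 1 to 3 and 52.1, 48.9 and 54.8 FPKM in APCmin/+;ieCtnnb1KO tumors 1 to 3. No overlap was seen, and the log2 difference was 0.40 (SE 0.118, limma adjusted p = 0.286). Its coactivator Ppargc1a had 3.86, 5.17 and 7.56 FPKM in the tumor controls and 3.72, 2.61 and 3.48 FPKM in the tumor knockouts. The control replicate 1 lay just above the knockouts, and the log2 difference was -0.64 (SE 0.243, limma adjusted p = 0.325).

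Tfam, which packages mitochondrial DNA, had 9.005, 8.93 and 8.87 FPKM in APCmin/+ tumors 1 to 3 and 8.44, 7.92 and 8.38 FPKM in APCmin/+;ieCtnnb1KO tumors 1 to 3. Every knockout was below every control, with a log2 difference of -0.11 (SE 0.0800, limma adjusted p = 0.534), and in crypts the groups overlapped, with 0.17 (SE 0.182). The RNA polymerase Polrmt had 0.07 (SE 0.213) in crypts and -0.06 (SE 0.0835) in tumors. Myc, a Wnt target that acts on ribosome genes, had 51.6, 26.2 and 15.3 FPKM in Wild type crypts 1 to 3 and 23.4, 56.7 and 25.4 FPKM in ieCtnnb1KO crypts 1 to 3. The groups overlapped widely, and the log2 difference of 0.23 (SE 0.494) was -0.18 without Wild type 3 and -0.17 without ieCtnnb1KO 2. In tumors it was 0.02 (SE 0.189), -0.20 without the control replicate 2, -0.0066 without the knockout replicate 2, -0.0095 without the knockout replicate 3 and -0.09 with the same FPKM total. Polrmt in crypts stood at -0.13 without Wild type 3 and -0.07 without ieCtnnb1KO 2. Ppargc1a in crypts, at 0.07 (SE 0.219), stood at -0.0072 without Wild type 1 and -0.11 without ieCtnnb1KO 3.

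The messages that these ribosomes translate were measured in the same libraries. All 13 mitochondrially encoded protein genes were below 0 in crypts, with a median of -0.43, though 2 of 13 were above 0 with the same FPKM total. The median was -0.29 with the same FPKM total and -0.50 with a total that left out the 50 highest genes. Quantile normalization gives genes of the same rank the same value in every library. After it 6 of 13 were above 0 and the median was 0.00, which does not show an opposite direction. Their summed level was 99833, 158309 and 118304 FPKM in Wild type crypts 1 to 3 and 87113, 79361 and 122511 FPKM in ieCtnnb1KO crypts 1 to 3. The groups overlapped, with Wild type 2 highest and ieCtnnb1KO 2 lowest. The 1 gene with an unadjusted p under 0.05 was mt-Atp8 (-1.63, SE 0.507, limma adjusted p = 0.797), a short gene that overlaps mt-Atp6 in the mitochondrial genome. In tumors 5 of 13 were above 0 with a median of -0.15 (-0.02 after quantile normalization), and the sums were 12750, 16897 and 15100 FPKM in controls and 12040, 13521 and 11539 FPKM in knockouts. There mt-Atp8 (1.12) and mt-Co3 (0.78) had an unadjusted limma p under 0.05 and were higher, or 1 gene with the same FPKM total. Both mitochondrial rRNAs were below 0 in crypts (median -0.68) and above 0 in tumors (median 0.38, or 0.20 after quantile normalization). Their sums were 1336, 4825 and 3995 FPKM in Wild type crypts 1 to 3 and 1410, 1579 and 2800 FPKM in ieCtnnb1KO crypts 1 to 3. In tumors the sums were 174, 196 and 245 FPKM in controls and 225, 272 and 286 FPKM in knockouts. The groups overlapped in both tissues.

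For scale, 2 other large sets of nuclear genes were compared. Of 77 tested nuclear subunits of the respiratory chain, with Atp5o at 0, 66 were above 0 in crypts (median 0.26) and 73 in tumors (median 0.25). Of these, 28 and 19 had an unadjusted limma p under 0.05 and were higher, 0 and 0 were lower, and 36 and 15 had every knockout above every control (all genes 6.79% and 11.4%). After quantile normalization the 36 and 15 became 22 (all genes 5.33%) and 5 (all genes 9.29%), and the medians 0.18 and 0.14. The 28 became 12 with a total that left out the 50 highest genes and 8 after quantile normalization, and the 19 became 8 after quantile normalization. Among the 4 tumor libraries with Y-linked transcripts the median was 0.08, with 2 genes at an unadjusted p under 0.05. Of 78 cytosolic ribosomal protein genes, 57 were above 0 in crypts (median 0.12) and 69 in tumors (median 0.22, but -0.0015 among the 4 libraries with Y-linked transcripts), with 1 and 5 higher and 1 and 0 lower at an unadjusted p under 0.05. After quantile normalization 45 of 78 were above 0 in crypts (0.03) and 43 of 78 in tumors (0.04), with 1 and 4 higher and 2 and 3 lower at that p. In tumors 2 then lay above all controls and 11 below. No gene of either set had an adjusted p under 0.05. The members' medians of 0.18 and 0.16 lay between those of these sets in crypts and below both in tumors, and these differences were not tested. In tumors the order depended on the processing, since after quantile normalization the members were at 0.12, the respiratory chain at 0.14 and the cytosolic set at 0.04.

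**Figure D4:**
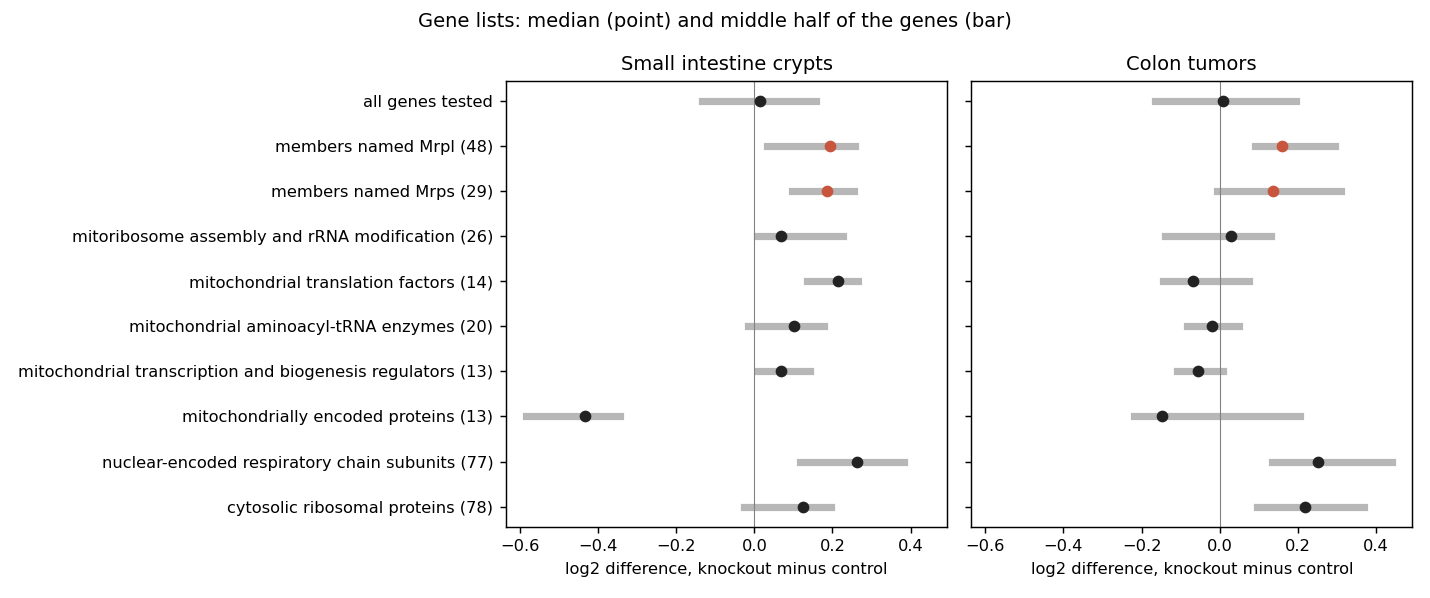
Median log2 difference between knockout and control (point) and the range from the lower to the upper quartile (bar) for each gene list, with the number of genes tested in crypts in parentheses. Members named Mrpl stand at 0.19 in crypts and 0.16 in tumors, and those named Mrps at 0.18 and 0.14. All genes stand at 0.01 in both, and mitochondrially encoded proteins at -0.43 and -0.15.

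In tumors the differences were related to gene length. Among protein-coding genes other than the members, the median log2 difference in tumors was 0.26 for genes up to 1000 bases, 0.10 for genes over 2000 and up to 3000 bases and -0.10 for genes over 8000 bases. The members had medians of 0.44 (8 genes), 0.10 (17 genes) and 0.15 (4 genes) in the same classes, so their longest class did not lie below 0. Their log2 differences and lengths had a Spearman rho of -0.54 over 77 members in tumors and 0.09 in crypts, against -0.33 over 13320 and -0.14 over 11693 protein-coding genes. In crypts the members up to 1000 bases had a median of -0.0041 (8 genes) against 0.03 for other genes. The members over 1500 and up to 2000 bases had a median of 0.24 against 0.08 for other genes, and those over 5000 and up to 8000 bases 0.14 against 0.01. With the length trend removed from each library, an alternative added after the data were seen, the members' median was 0.16 in crypts and 0.11 in tumors. In tumors 12 members then had an unadjusted p under 0.05 (15.6%, all genes 7.48%) and 11 lay above all controls (14.3%, all genes 10.53%), in place of 13 and 17.

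**Figure D5:**
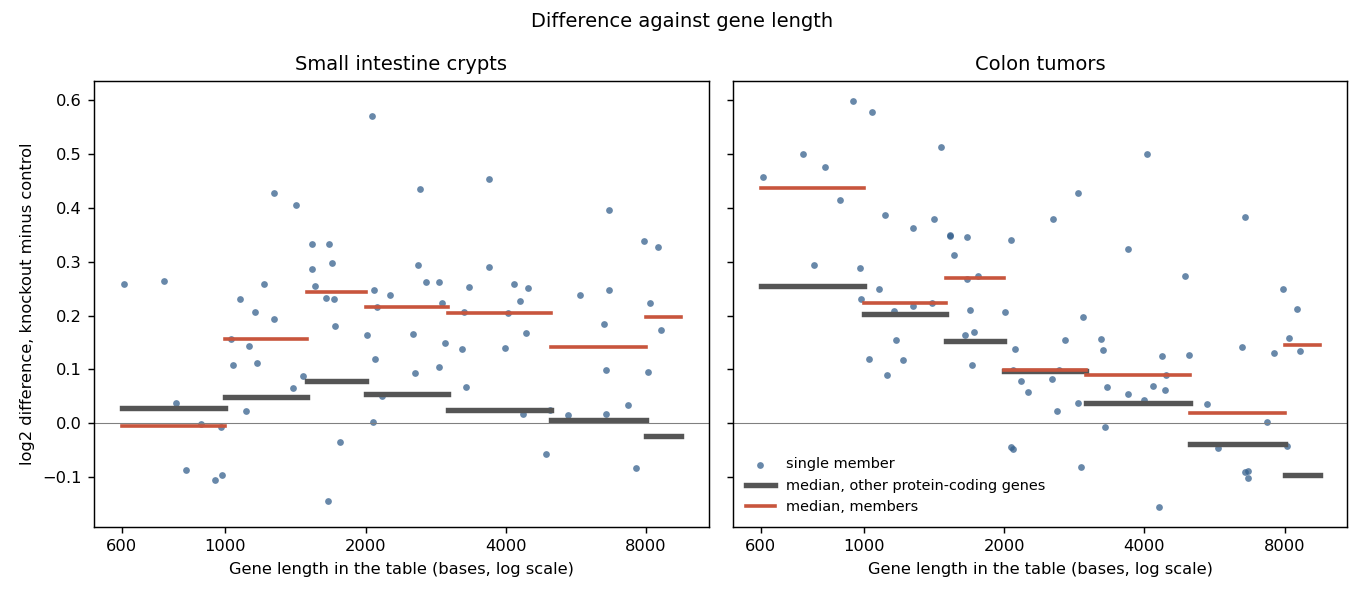
Log2 difference between knockout and control against gene length (log scale) for 77 members in crypts and tumors, with the medians of members and of other protein-coding genes in 7 length classes. In tumors the other genes go from 0.26 in the shortest class to -0.10 in the longest, and in crypts they stay between -0.02 and 0.08.

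Markers of other cell types were read in crypts. The 5 Paneth cell markers were all below 0 (median -0.56), though 1 of 5 was above 0 with the same FPKM total and the median was -0.22 after quantile normalization. They had sums of 20089, 29072 and 58112 FPKM in Wild type crypts 1 to 3 and 22352, 19154 and 22315 FPKM in ieCtnnb1KO crypts 1 to 3, Defa24 most abundant and none at 0. The 6 enterocyte markers were all above 0 (median 0.49), with sums of 3007, 4519 and 8776 FPKM in controls and 6705, 5008 and 7647 FPKM in knockouts, Fabp2 most abundant and none at 0. Both sums overlapped between the groups. Of the single markers, 2 of 5 Paneth cell markers (1 of 5 after quantile normalization) had every knockout below every control. Every knockout lay above every control for 0 of 6 enterocyte markers (1 of 6 after quantile normalization). Their part in the members' differences was not tested.

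The remaining markers of crypts are given by counts above 0 and medians. They were 3 of 7 epithelium markers (-0.03, or 0.12 with the same FPKM total), 3 of 4 stem cell markers (0.02, or -0.04 after quantile normalization), 4 of 5 proliferation markers (0.14, or 0.02 with 3 of 5 after quantile normalization), 1 of 5 goblet cell markers (-0.30, or -0.16 with the same FPKM total) and 2 of 2 tested colonocyte markers (0.69). They were also 0 of 3 enteroendocrine (-0.47), 0 of 3 tuft cell (-0.22, or -0.10 with the same FPKM total), 0 of 2 tested fibroblast (-0.56), 0 of 1 tested endothelium (-0.11), 1 of 9 tested leukocyte (-0.12, or 4 of 9 and -0.0060 with the same FPKM total), 0 of 3 plasma cell (-0.45) and 2 of 3 tested mast cell markers (0.53). At an unadjusted limma p under 0.05, 2 enteroendocrine, 2 plasma cell, 3 stomach, 1 fibroblast and 1 Paneth cell markers were lower and 2 colonocyte markers higher, and 0 had an adjusted p under 0.05. With the same FPKM total the enteroendocrine, plasma cell and fibroblast counts were 0. The enteroendocrine sums, led by Chgb, were 128, 102 and 160 FPKM in Wild type crypts 1 to 3 and 73.9, 99.8 and 98.9 FPKM in ieCtnnb1KO crypts 1 to 3. The plasma cell sums, led by Igha, were 55.8, 66.9 and 60.6 FPKM in controls and 53.3, 63.6 and 45.3 FPKM in knockouts. The colonocyte sums, led by Car4, were 76.7, 62.2 and 53.7 FPKM in controls and 103, 103 and 133 FPKM in knockouts. Their part in the result was not tested. Stomach markers, led by Pgc, were below 0 for 3 of 3 tested (median -2.68) and summed to 37.9 and 37.3 FPKM in Wild type crypts 1 and 2 and to between 1.74 and 2.24 FPKM in the other 4 libraries. Pancreas markers, 3 of 3 above 0 (0.17), summed to at most 7.46 FPKM.

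In tumors several marker lists stood apart between the genotypes. All 7 epithelium markers had every knockout above every control, though 4 of 7 did with the same FPKM total and 2 of 7 after quantile normalization. They had sums of 3497, 3378 and 3080 FPKM in APCmin/+ tumors 1 to 3 and 4011, 3956 and 4112 FPKM in APCmin/+;ieCtnnb1KO tumors 1 to 3, Krt8 most abundant and none at 0. All 5 goblet cell markers had every knockout above every control, with sums of 753, 638 and 640 FPKM in controls and 1193, 1720 and 1371 FPKM in knockouts, Tff3 most abundant. The 3 neutrophil markers had every knockout below every control, with sums of 182, 417 and 283 FPKM in controls and 178, 86.1 and 176 FPKM in knockouts, S100a9 most abundant. All 6 fibroblast markers were above 0 (median 0.53), with sums of 345, 216 and 208 FPKM in controls and 346, 452 and 358 FPKM in knockouts, Col1a1 most abundant. The part of these cell types in the members' differences was not tested. The proliferation markers, with 1 of 5 above 0 and a median of -0.08 (-0.19 with the same FPKM total), had sums of 157, 161 and 136 FPKM in controls and 165, 130 and 164 FPKM in knockouts.

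Of the other markers in tumors, those above 0 were 5 of 5 Paneth cell (median 0.67), 0 of 3 tested stem cell (-0.09), 1 of 1 tested enterocyte (0.82), 4 of 4 colonocyte (0.44), 2 of 2 tested enteroendocrine (0.31) and 1 of 2 tested tuft cell markers (-0.10). They were also 3 of 4 smooth muscle (0.21, or 0.12 with the same FPKM total), 3 of 4 endothelium (0.05, or -0.06 with the same FPKM total), 5 of 6 tested leukocyte (0.19, or 0.09 with the same FPKM total), 3 of 3 plasma cell (0.53), 1 of 4 mast cell (-0.32) and 0 of 1 tested stomach markers (-0.17). Among the 4 tumor libraries with Y-linked transcripts, Paneth cell markers were at 1.29 (5 of 5 above 0, 2 at an unadjusted p under 0.05), stem cell markers at -0.25 (1 of 3), mast cell markers at 0.24 (4 of 4), stomach markers at 0.49 (2 of 2) and leukocyte markers at 0.50 (7 of 7). No pancreas marker met the FPKM minimum in tumors, and Cpa1 was at 0.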

How the data were processed

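Bulk RNA-seq was measured in 12 mouse libraries, 3 per group. The authors deposited FPKM in a table for each tissue, and the labels name cutadapt, HISAT2, Cufflinks 2.2.1, DESeq2 and mm10, while the methods name featureCounts for counting reads. Annotation, use of strand and the way FPKM were computed are not stated. FPKM times gene length was a whole multiple (tolerance 0.01) of a step for over 99.9% of values, which gave fragments per library. The median ratio of each library to the geometric mean was 1.01 in crypts and 1.00454 in tumors, so the tables already carry such a scaling. Gene positions matched GENCODE M21 (GRCm38) for 53499 of 54409 genes.

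A pseudocount of 0.5 was added before taking log2. In each tissue, genes averaging 0.5 FPKM or more were then fitted by limma 3.58.1 (R 4.3.3), using its variance trend, and p-values were adjusted over all those genes by Benjamini-Hochberg (threshold 0.05). Log2 differences are knockout minus control. The procedure was tested on simulated data whose non-zero changes were larger than the difference of any member. That test does not show whether changes of the members' size would be found. Tables and figures used Python 3.11.15, pandas 2.3.3, numpy 2.4.6 and matplotlib 3.10.9.

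Members and lists were chosen with earlier results of these data known, so lists are given as counts and medians. Named by rule were the 3 highest and 3 lowest members, the 5 with the smallest p in each direction, members with a known role, those at the FPKM minimum, Tufm, Tfam, Polrmt, Ppargc1a, Myc, Lrpprc and Ctnnb1, and the 2 smallest-p genes per list of further mitoribosome proteins, assembly, translation, tRNA charging and regulators. Other lists were mitochondrially encoded genes, respiratory chain subunits, cytosolic ribosomal proteins and cell type markers. Alternatives were other pseudocounts, filters, scalings and variance models, protein-coding genes alone, voom on fragments, the replicate number as a block and leaving out each library. Added after the data were seen were removal of the length trend, tumor libraries with Y-linked transcripts or with Xist alone, and transcript length.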

Additional observations from a re-analysis of the deposited data

How the results depend on the processing

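No member had an adjusted limma p under 0.05 under any alternative tried, while the counts at an unadjusted p under 0.05 moved. The members' median log2 difference was above 0 under every alternative, including each library left out, which gave 0.12 to 0.25 in crypts and 0.08 to 0.24 in tumors. With 3 libraries per group, and 1 or 2 left in some alternatives, single members rest on few values. Depth limits Mrps6 most, with as few as 93 fragments in a crypt library.

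Over left-out libraries, the count at an unadjusted limma p under 0.05 (7 in crypts, 13 in tumors) ran from 0 to 17 and from 2 to 27. The share of all genes at that threshold ran from 1.70% to 5.23% in crypts and from 5.09% to 9.79% in tumors. The count above all controls (10 and 17) ran from 10 to 35 in crypts and from 17 to 47 in tumors. For all genes that share ran from 9.52% to 15.5% in crypts and from 14.8% to 20.1% in tumors. Without ieCtnnb1KO 2 the 10 members above all controls (13.0%) were near the share of all genes (11.6%). With fewer libraries, groups overlap less easily. With the same FPKM total, the count above was 5 in crypts (6.49%, all genes 10.04%), and the counts were 8 (10.4%, all genes 4.37%) and 9 (11.7%, all genes 5.74%) in tumors. Without the 50 highest genes they were 2 (2.60%, all genes 2.01%) and 2 (2.60%, all genes 3.62%) in crypts and 7 (9.09%, all genes 4.36%) and 7 (9.09%, all genes 5.92%) in tumors. Without mitochondrially encoded genes they were 3 (3.90%, all genes 3.16%) and 5 (6.49%, all genes 6.79%) in crypts and 7 (9.09%, all genes 3.94%) and 9 (11.7%, all genes 5.29%) in tumors. Quantile normalization gave 2 in crypts (2.60%, all genes 2.61%) and 8 in tumors (10.4%, all genes 6.62%) at an unadjusted p under 0.05. Members below all controls, 0 in both tissues as deposited, were 3 (all genes 17.5%), 5 (all genes 18.3%) and 4 (all genes 18.4%) in tumors with these 3 totals and 0 in crypts. In crypts the share of members above all controls was thus below that of all genes with each of these 3 totals. With the replicate number as a block the count was 4 in crypts (5.19%, all genes 2.78%) and 13 in tumors (16.9%, all genes 6.93%), but libraries of the same number are different mice. Removing the length trend, added after the data were seen, left 11 above all controls in tumors (14.3%, all genes 10.53%). The tumor libraries with Y-linked transcripts, also added later, gave 0 at an unadjusted limma p under 0.05 (all genes 4.26%), with fewer libraries. Those with Xist, 1 against 1, gave a median of 0.44 (all genes 0.004).

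Some single genes changed sign, and those named here are examples. As deposited, 68 of the 77 members were above 0 in crypts (all genes 52.8%) and 67 in tumors (all genes 51.3%). The share of all genes above 0 was not counted on the other scales, which also move the median of all genes. With the same FPKM total, 76 members were above 0 in crypts (median of all genes 0.14) and 50 in tumors (-0.09). The genes that changed sign then included Mrpl17 (0.0517), Mrpl27 (0.0501), Mrpl14 (0.0397) and Mrpl23 (0.0789) in crypts. In tumors they included Mrps22 (-0.0575), Mrps18a (-0.0502), Mrpl58 (-0.0392), Myc (-0.0924) and Gatc (-0.0052). Without the 50 highest genes, 59 members were above 0 in crypts (median of all genes -0.04) and 50 in tumors (-0.09). The genes that changed sign in tumors then included Mrps22 (-0.0581), Mrps18a (-0.0509), Mrpl58 (-0.0399), Myc (-0.0931) and Gatc (-0.0060). Without mitochondrially encoded genes they were Mrps22 (-0.0730), Mrps18a (-0.0667), Mrpl58 (-0.0557) and Myc (-0.11), and for Gatc, tumors gave -0.0219. Quantile normalization gave Myc -0.10 and removal of the length trend -0.0484 in tumors. The libraries with Y-linked transcripts gave Mrps18a -0.0692, Mrps18b 0.13 and Mrpl58 -0.15. Over left-out libraries the ranges in crypts were -0.25 to 0.17 for Mrpl14, -0.33 to 0.15 for Mrpl20, -0.16 to 0.0517 for Mrpl23, -0.24 to 0.11 for Mrpl27, -0.10 to 0.29 for Mrps12, -0.0430 to 0.30 for Mrps22, -0.18 to 0.68 for Myc, -0.13 to 0.24 for Polrmt and -0.11 to 0.29 for Ppargc1a. In tumors they were -0.0705 to 0.27 for Mrpl58, -0.0210 to 0.20 for Mrps18a, -0.14 to 0.10 for Mrps18b, -0.0325 to 0.0889 for Mrps22 and -0.20 to 0.16 for Myc. Beyond the smaller number of libraries, the cause was not tested.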

Other observations

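Of the 5 processed pseudogenes with a matching name, Mrpl23-ps1 averaged 1.78 FPKM in crypts and 1.39 FPKM in tumors, Mrps36-ps1 1.31 and 0.944 FPKM, Mrpl48-ps 1.03 and 1.14 FPKM, and Mrps36-ps2 0.388 and 0.504 FPKM. Mrps36-ps3 was listed at 0. Processed pseudogenes are copies of the spliced message, so fragments may be shared with the parent gene.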
